A study of Mus musculus with 6 samples.

Results

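The transcripts of 47 lysosomal genes were compared between 4T1 cells with high and with low β-galactosidase activity. The genes encode membrane proteins of the lysosome (11), soluble hydrolases (18), subunits and accessory proteins of the vacuolar proton pump (V-ATPase, 15) and the MiT/TFE transcription factors Tfeb, Tfe3 and Mitf. They were chosen by gene symbol from a list of 48 names, of which Limp2 is an older name of Scarb2, and they make up 47 of the 53465 genes in the table. 4T1 is a mouse mammary carcinoma line. All 6 libraries came from 4T1 cells resistant to axitinib, an inhibitor of VEGF receptor kinases. The resistant cells had been recovered from mice dosed with axitinib at 100 mg/kg/day, out of lesions that appeared after surgery, and were kept in culture with 0.5 µM axitinib for over 2 months. The SM positive fraction (3 libraries) had a high and the SM negative fraction (3 libraries) a low C12FDG signal. C12FDG is a fluorogenic substrate of senescence-associated β-galactosidase. The labels name no unsorted or axitinib-naive cells, so both fractions carry the resistance and the drug.

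Lysosomes degrade material that reaches them by endocytosis and autophagy. The V-ATPase uses ATP to pump protons into the lumen: its V1 sector faces the cytosol and hydrolyses ATP, and its V0 sector forms the proton path through the membrane. The acid lumen activates the hydrolases, and transporters and channels in the membrane export the products. Tfeb, Tfe3 and Mitf encode factors that bind an E-box called the CLEAR element near many lysosomal genes. They are held in the cytosol by phosphorylation by mTORC1, so their activity is set largely after transcription. Senescent cells often have enlarged lysosomes, and the activity used for the sort is that of a lysosomal enzyme.

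Levels are CPM, counts scaled to a common library size with TMM factors, and changes are SM positive over SM negative on the log2 scale. Library totals were 18733801 to 26533528 counts. Epithelial markers (7 of 7 above 1 CPM) summed to between 4482 and 4697 CPM in SM negative and between 4202 and 4518 CPM in SM positive libraries. With the replicate block, 3 of the 7 fell, where 5.6% of all genes did. They were Epcam (log2 change -0.16, adjusted p = 0.0147), Krt19 (-0.88, adjusted p = 0.0263) and Cldn4 (-0.16, adjusted p = 0.00727). None passed without the block. Krt19 had only 19 to 47 counts per library. Krt8, Krt18 and Krt7 (log2 changes of -0.09, -0.10 and -0.08) and Cdh1 (0.05) did not pass. Of 12 macrophage and myeloid markers only Cd14 reached 1 CPM, their sum was 8.48 to 10.2 CPM in SM negative and 7.85 to 9.87 CPM in SM positive libraries, and Adgre1, Tyrobp, C1qa and C1qb had no count in any library. Fibroblast markers summed to 4.36 to 4.97 CPM in SM negative and 5.84 to 8.10 CPM in SM positive libraries, with Pdgfra the only one of 7 above 1 CPM and Lum and Thy1 at 0. Pdgfra rose with the block (log2 change 0.49, adjusted p = 0.0423, against 0.246 without it), and the part of epithelial and fibroblast markers in the results was not tested. The 6 endothelial markers summed to at most 0.694 CPM, with Emcn at 0, and the 7 T and B cell markers to at most 0.19 CPM, with Cd3e, Cd3g, Cd4 and Cd8a at 0. In bulk RNA, a change in the number of cells that express a gene and a change in the RNA per cell cannot be told apart.

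A few of the lysosomal genes were higher in SM positive cells when libraries were paired by replicate number. None passed in edgeR without pairing when low counts were filtered out. DESeq2 without pairing called Ctns and Lipa, and edgeR without pairing or filter called Ctns, Ids and Lipa. In the paired fit 9 of the 46 tested members rose (19.6%, against 8.52% of all genes) and 2 fell (4.35%, against 5.6%). The cystine exporter gene Ctns was 1.6-fold higher, the acid lipase gene Lipa 1.37-fold and the iduronate sulfatase gene Ids 1.2-fold. Ctns and Lipa passed in all 7 paired alternatives and Ids in 5. Among the 15 V-ATPase genes, Atp6v1a and Atp6v0a1 were higher and Atp6v0b and Atp6v1f lower in this fit, by 1.09-fold to 1.15-fold. That is 13.3% in each direction, against 8.52% of all genes higher and 5.6% lower. None of these V-ATPase genes passed in the blocked fit with DESeq2, and differences between subunits were not tested. The transcripts of the 3 TFE factors had log2 changes of 0.04 to 0.15, and none passed with or without pairing. Of the 47 genes, 46 passed the filter on low counts, and Hexa did not.

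In edgeR's quasi-likelihood test without pairing, none of the 46 tested members passed an adjusted p of 0.05 in either direction, where 1.14% of all 14038 genes tested were called higher and 0.214% lower. At an unadjusted p under 0.05, 7 members were higher and 1 lower (8.04% and 5.58% of all genes). DESeq2 without pairing called 2 members higher, Ctns and Lipa, and none lower, and limma-voom called none. Libraries with the same replicate number deviated together across all genes, and the replicate numbers were therefore treated as pairs. With the replicate number as a block in the edgeR fit, 9 of 46 members rose (19.6%, against 8.52% of all genes) and 2 fell (4.35%, against 5.6% of all genes). The 9 were Ctns, Lamp2, Lipa, Ids, Smpd1, Arsa, Gaa, Atp6v1a and Atp6v0a1, and the 2 were Atp6v0b and Atp6v1f. These counts depended on single pairs: in the blocked fit 3, 7 and 3 members rose and 0, 1 and 0 fell without pair 1, 2 or 3. Ctns and Lipa passed in all 3 of these fits and in the other 4 blocked alternatives. In the blocked fit with DESeq2 these were the only 2 members called. Of the 7 blocked alternatives, Ids passed in 5, Smpd1, Atp6v1a and Atp6v1f in 4, Lamp2, Arsa and Atp6v0a1 in 3, and Gaa and Atp6v0b in 2. The alternatives with RLE size factors and with library totals changed only the scaling and called the same members as the TMM fit. Gaa and Atp6v0b passed in these alone.

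The direction was shared more widely than the calls. The log2 change was positive for 35 of 46 members, with a median of 0.06, against 6987 of 14038 genes and a median of -0.00085 for all genes tested. Members were higher in all 3 pairs in 21 cases (45.7%, against 23.9% of all genes) and lower in all 3 pairs in 7 (15.2%, against 22.7%). The lowest SM positive library lay above the highest SM negative library for 10 members (21.7%, against 10.4% of all genes), and the reverse held for 3 (6.52%, against 9.47%).

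**Figure D1:**
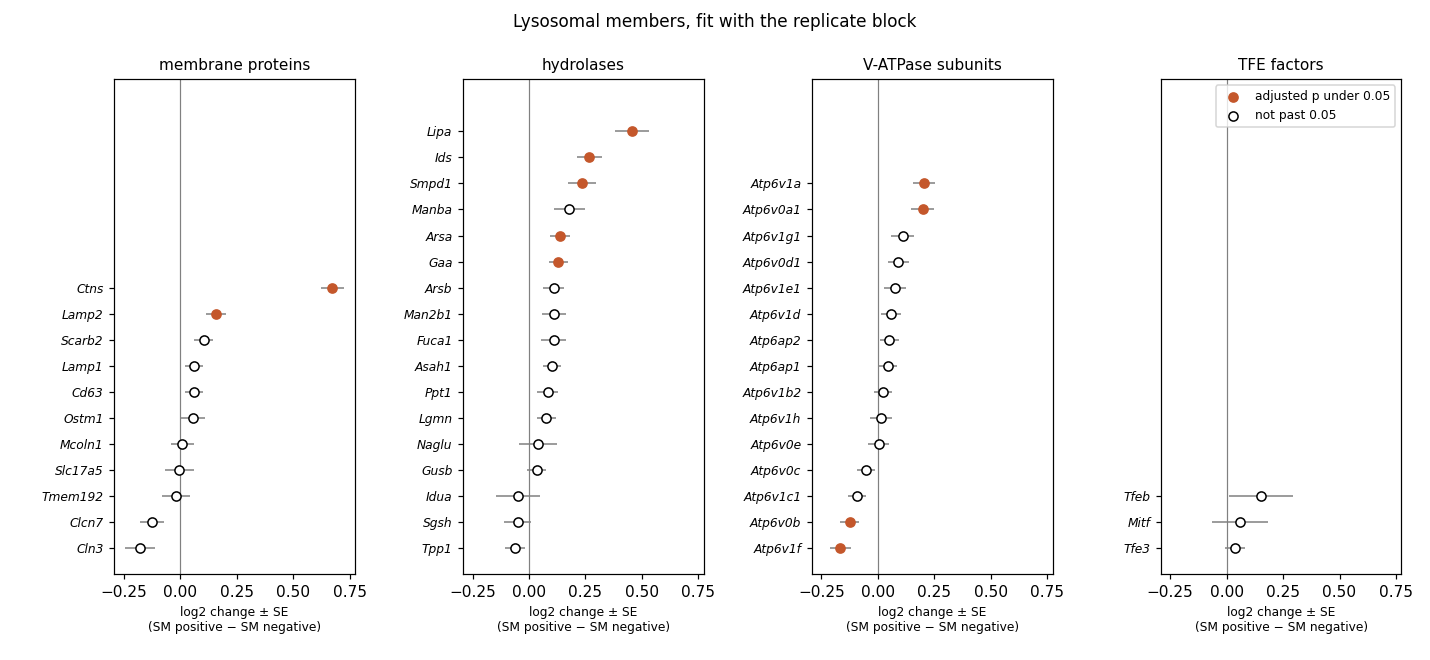
Log2 change (x axis, SM positive minus SM negative, ± SE) of the 46 tested members in 4 panels by class, from the fit with the replicate block. Filled points passed an adjusted p of 0.05. Ctns, at 0.67, lies apart from the other members, whose values run from -0.18 to 0.46, and both filled points left of 0 are V-ATPase subunits.

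By class, the median log2 change was 0.11 for hydrolases, 0.06 for membrane proteins, 0.05 for TFE factors and 0.04 for V-ATPase subunits. Single libraries moved these values: the membrane protein median was 0.0165 without SM negative replicate 2, and the V-ATPase median was 0.0097 without SM positive replicate 3. The hydrolase median was 0.0695 with the block and without pair 1. With the block, 5 of 17 tested hydrolases rose and none fell, 2 of 11 membrane proteins rose and none fell, 2 of 15 V-ATPase genes rose and 2 fell, and none of the 3 TFE factors passed. The shares that rose were 29.4%, 18.2% and 13.3% for hydrolases, membrane proteins and V-ATPase genes, against 8.52% of all genes, and 13.3% of V-ATPase genes fell, against 5.6% of all genes. Summed over the class, hydrolases stood at 1059, 1017 and 1026 CPM in SM negative replicates 1, 2 and 3 and at 1152, 1077 and 1099.7 CPM in SM positive replicates 1, 2 and 3. The fractions did not overlap in this sum. V-ATPase genes summed to 1616, 1566 and 1591 CPM in SM negative and to 1591, 1591 and 1657 CPM in SM positive replicates, and here the fractions overlapped. The ratio of the hydrolase sum to the V-ATPase sum was 0.65 ± 0.0052 (SD, n = 3) in SM negative and 0.688 ± 0.032 in SM positive libraries, and the SM positive value was raised most by replicate 1 (0.7245). Differences between the classes were not tested.

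**Figure D2:**
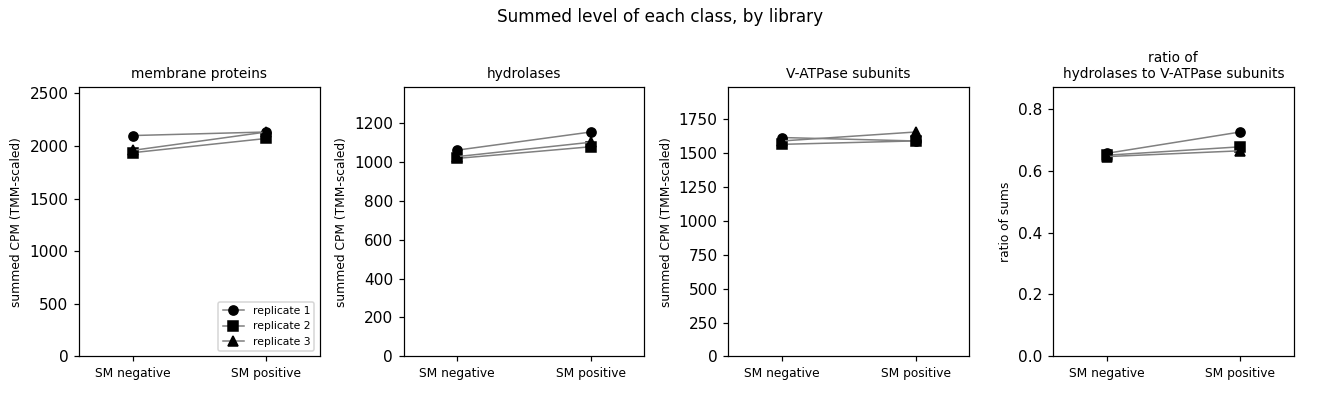
Summed CPM of membrane proteins, hydrolases and V-ATPase genes, and the ratio of the hydrolase sum to the V-ATPase sum (y axes, from 0), in each library (symbols by replicate number, lines joining the same number). Hydrolases were higher in SM positive cells in all 3 pairs, by sums of 1077 to 1152 CPM against 1017 to 1059 CPM, while V-ATPase sums crossed.

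The proximal promoters of the members were searched for the core of the E-box that TFE factors bind. Binding was not measured, so a core in a window does not show a TFE site. The windows, from RefSeq on build GRCm38.p6, run from 250 bases before to 50 bases after an annotated start and were given for 42 of the 47 genes. The E-box core CACGTG reads the same on both strands, and it lay in a window of 13 of the 42 genes (31%), against 8.09% of all 27025 genes with a window and 11.9% of the 9520 such genes with a symbol among the genes tested. The core was present for 4 of 11 membrane proteins, 5 of 17 hydrolases, 4 of 11 V-ATPase genes and none of the 3 TFE factors. A longer palindrome of 10 letters around the core lay in a window of 1 of the 42 genes, Cln3 (2.38%). The share was 0.37% of all genes with a window and 0.84% of those tested. The 250 bases before the start are shown for Ctns and Lipa, which had the largest changes, for Atp6v1a and Atp6v0b, V-ATPase genes that moved in opposite directions, and for Lamp1, with the most E-box cores among them (4). They are written 5′ to 3′ on the gene's strand, with the E-box core in capitals, and lie at chr11:73199020-73199269 (minus), chr19:34527475-34527724 (minus), chr16:44139260-44139509 (minus), chr4:117887330-117887579 (minus) and chr8:13158911-13159160 (plus).
Ctns: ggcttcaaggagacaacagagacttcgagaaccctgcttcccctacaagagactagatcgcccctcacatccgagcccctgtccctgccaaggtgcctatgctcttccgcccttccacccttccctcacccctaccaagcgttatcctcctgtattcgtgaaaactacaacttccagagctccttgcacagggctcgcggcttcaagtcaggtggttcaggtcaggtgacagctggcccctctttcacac
Lipa: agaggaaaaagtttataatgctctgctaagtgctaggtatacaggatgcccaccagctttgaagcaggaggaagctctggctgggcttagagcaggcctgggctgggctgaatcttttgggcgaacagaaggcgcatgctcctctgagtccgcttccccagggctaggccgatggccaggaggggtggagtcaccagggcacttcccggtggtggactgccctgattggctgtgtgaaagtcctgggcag
Atp6v1a: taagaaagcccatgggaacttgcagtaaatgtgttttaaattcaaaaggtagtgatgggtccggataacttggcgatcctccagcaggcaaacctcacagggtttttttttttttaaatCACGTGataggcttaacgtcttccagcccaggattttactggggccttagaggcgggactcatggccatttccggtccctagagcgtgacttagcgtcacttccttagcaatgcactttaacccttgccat
Atp6v0b: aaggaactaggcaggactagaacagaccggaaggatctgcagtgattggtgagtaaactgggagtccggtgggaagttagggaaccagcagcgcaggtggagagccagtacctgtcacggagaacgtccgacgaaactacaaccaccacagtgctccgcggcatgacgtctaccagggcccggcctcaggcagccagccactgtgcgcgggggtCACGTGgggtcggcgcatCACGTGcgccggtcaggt
Lamp1: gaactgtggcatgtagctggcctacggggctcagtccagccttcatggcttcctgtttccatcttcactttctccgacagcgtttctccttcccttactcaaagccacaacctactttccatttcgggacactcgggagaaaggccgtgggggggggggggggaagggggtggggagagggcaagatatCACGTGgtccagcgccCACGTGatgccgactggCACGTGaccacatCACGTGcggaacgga

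The core began 131 bases before the start in Atp6v1a, 36 and 18 bases before it in Atp6v0b, and 61, 45, 28 and 15 bases before it in Lamp1, and it was not in the stretches of Ctns and Lipa. These starts are RefSeq's, while the gene spans given with the values are GENCODE's, and the Atp6v1a stretch lies within the GENCODE gene because the annotated starts differ. Members called with the block were found both with and without the core. With the block, 3 of the 13 tested members with the core rose (Gaa, Arsa and Atp6v1a) and 1 fell (Atp6v0b). The median log2 change of the 13, from the fit without the block, was 0.04. Of the 28 tested members whose windows lacked the core, 6 rose with the block (Ctns, Lamp2, Lipa, Ids, Smpd1 and Atp6v0a1) and 1 fell (Atp6v1f). Their median without the block was 0.07. Among all tested genes with a window, 101 of 1137 with the core rose with the block and 73 fell (median without the block -0.015). Of 8384 without the core, 839 rose with the block and 440 fell (median without the block 0.0077). A core that lies outside these windows would be missed.

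Among the membrane proteins, Ctns changed most. Its product, cystinosin, exports cystine from the lysosome together with protons. Ctns (ENSMUSG00000005949.9, GRCm38 chromosome 11, 73183596 to 73199042, minus strand) stood at 28.6, 28.7 and 36.9 CPM in SM negative replicates 1, 2 and 3. In SM positive replicates 1, 2 and 3 it stood at 44.6, 45.8 and 60.1 CPM. The fractions did not overlap, and replicate 3 was the highest library within each fraction. The change within pairs 1, 2 and 3 was 0.64, 0.67 and 0.71 on the log2 scale. With the block the log2 change was 0.67 ± 0.051 (SE, adjusted p = 2.48e-08), and without it 0.67 ± 0.14 (adjusted p = 0.0576). Over the unblocked alternatives the adjusted p ran from 1.75e-13 to 0.199, and over the blocked ones from 1.72e-10 to 3.89e-05.

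Lamp2, a heavily glycosylated protein of the lysosomal membrane that is also needed for chaperone-mediated autophagy, lies on chromosome X (38401357 to 38456454, minus strand). It stood at 298.3, 304.1 and 290.4 CPM in SM negative and at 327, 314 and 356 CPM in SM positive replicates 1, 2 and 3. All 3 SM positive libraries lay above all SM negative ones, and replicate 3 gave the widest gap. The log2 change was 0.16 ± 0.045 (SE) with the block (adjusted p = 0.0234) and the adjusted p without it was 0.256. In the blocked fit without pair 3 the change was 0.09 (adjusted p = 0.325), and the call was also lost without pair 1 (0.147), with limma-voom (0.0503) and with DESeq2 (0.0744). The related gene Lamp1 stood at 856, 771 and 757 CPM and at 860.2, 825 and 803 CPM in the same order, with overlapping fractions (log2 change 0.06 ± 0.04 SE with the block, adjusted p = 0.344). Per kilobase of annotated exon, Lamp1 had the highest level of all members, 297 ± 19.9 (SD, n = 3) in SM negative and 310.0 ± 10.8 CPM per kb in SM positive libraries. Lamp2 stood at 31.2 ± 0.723 and 34.8 ± 2.26 CPM per kb. Its annotated exons span 9.552 kb against 2.675 kb for Lamp1, so the gap per kilobase depends partly on the annotation. Exons of Grtp1 on the opposite strand overlap Lamp1.

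None of the other 9 membrane proteins passed, with or without the block. Cln3, the gene of the membrane protein lost in juvenile neuronal ceroid lipofuscinosis, had the lowest log2 change of its class. It stood at 24.6, 23.5 and 21.7 CPM in SM negative and at 20.6, 21.5 and 19.7 CPM in SM positive replicates, so the fractions did not overlap. Its log2 change was -0.18 ± 0.065 (SE) with the block (adjusted p = 0.0741), and exons of Apobr overlap it on the opposite strand. The chloride/proton exchanger gene Clcn7 had a log2 change of -0.13, and its β-subunit gene Ostm1 one of 0.06. The calcium channel gene Mcoln1 (0.01), the sialic acid transporter gene Slc17a5 (-0.0058) and Tmem192 (-0.02) lay near 0. Scarb2, the receptor that carries glucocerebrosidase to the lysosome, had a log2 change of 0.10 and the tetraspanin gene Cd63 one of 0.06. Part of the Cd63 reads may be divided with 1 annotated pseudogene.

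The hydrolases that rose act on lipids, heparan and dermatan sulfate, sulfatide and glycogen. Lipa, which encodes the acid lipase that splits cholesteryl esters and triglycerides (chromosome 19, 34492318 to 34527474, minus strand), stood at 15.3, 12.02 and 13.5 CPM in SM negative replicates 1, 2 and 3. It stood at 19.5, 17.7 and 19.0 CPM in SM positive replicates 1, 2 and 3. The lowest SM positive library lay above the highest SM negative one, and the changes within pairs were 0.35, 0.56 and 0.49 on the log2 scale. With the block the log2 change was 0.46 ± 0.075 (SE, adjusted p = 0.000319), and without it the adjusted p was 0.0636, with 0.00147 to 0.221 over the unblocked alternatives.

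Ids, iduronate 2-sulfatase of heparan and dermatan sulfate breakdown (chromosome X, 70343069 to 70365084, minus strand), stood at 43.8, 44.9 and 41.8 CPM in SM negative and at 49.4, 51.0 and 57.0 CPM in SM positive replicates. The fractions did not overlap, and pair 3 had the largest change (0.45, against 0.17 and 0.18 in pairs 1 and 2). The log2 change was 0.27 ± 0.056 (SE) with the block (adjusted p = 0.00316), and without pair 3 the adjusted p was 0.0822. Smpd1, the acid sphingomyelinase gene (chromosome 7, 105554360 to 105558389, plus strand), stood at 24.0, 24.6 and 26.4 CPM and at 30.7, 27.5 and 29.6 CPM, without overlap (log2 change 0.23 ± 0.061 SE, adjusted p = 0.014 with the block). The changes of Ids and Smpd1 did not pass without the block, at adjusted p = 0.121 and 0.229. The blocked call of Smpd1 was lost without pair 1 (adjusted p = 0.263) or pair 3 (adjusted p = 0.0547).

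Arsa and Gaa passed narrowly with the block. Arsa, the arylsulfatase that removes the sulfate of sulfatide (chromosome 15, 89472476 to 89477425, minus strand), stood at 123.9, 106 and 109 CPM in SM negative and at 137, 123.9 and 113 CPM in SM positive replicates. The fractions overlapped, but each SM positive library lay above the SM negative library with its number (log2 change 0.14 ± 0.044 SE, adjusted p = 0.0435 with the block). Gaa, the acid α-glucosidase that degrades glycogen (chromosome 11, 119267887 to 119285454, plus strand), stood at 88.7, 83.7 and 95.7 CPM and at 98.5, 94.0 and 100.7 CPM. Its fractions overlapped too (log2 change 0.13 ± 0.042 SE, adjusted p = 0.0446 with the block). Without the block Arsa and Gaa had adjusted p = 0.515 and 0.414. The blocked call of Arsa was lost without pair 1 or 2 (adjusted p = 0.268 and 0.237), and that of Gaa without pair 1, 2 or 3 (adjusted p = 0.316, 0.162 and 0.0799). Exons of the antisense gene C230037L18Rik overlap Arsa on the opposite strand.

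Of the 12 other tested hydrolases, 9 had a positive and 3 a negative log2 change, and none passed. Tpp1, the tripeptidyl peptidase gene, had the lowest log2 change of the class (-0.06 ± 0.044 SE with the block, adjusted p = 0.401), and stood at 67.5, 62.3 and 64.1 CPM in SM negative and at 64.3, 58.6 and 63.0 CPM in SM positive replicates. Among the 9, Asah1 (acid ceramidase), Man2b1 (an α-mannosidase) and Fuca1 (an α-fucosidase) were higher in every SM positive than in every SM negative library, with log2 changes of 0.10, 0.11 and 0.11. The β-glucuronidase gene Gusb had a log2 change of 0.04. Glb1, which encodes the lysosomal β-galactosidase and is not one of the 47 genes, stood at 42.5, 37.7 and 42.1 CPM in SM negative and at 45.1, 40.9 and 43.7 CPM in SM positive replicates. The fractions overlapped, and its log2 change of 0.085 with the block did not pass (adjusted p = 0.291, and 0.682 without the block).

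Hexa, a hydrolase gene of ganglioside breakdown (ENSMUSG00000025232.8, chromosome 9, 59539540 to 59565109, plus strand), had 0 counts in all 6 libraries. A count of 0 allows up to 3 counts, which is 0.113 to 0.16 CPM depending on the library. The neighbours Gm33180 and Tmem202 on one side also had 0 counts in every library, and Celf6 on the other side had 1 count in each of 2 libraries. Beyond them, Arih1 stood at 136 to 159.5 CPM and Parp6 at 15.5 to 19.0 CPM.

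The V-ATPase genes called with the block lay in both sectors and went in both directions. In the V1 sector, Atp6v1a, which encodes the catalytic A subunit (chromosome 16, 44085402 to 44139705, minus strand), stood at 117, 122 and 111 CPM in SM negative and at 135, 127 and 142 CPM in SM positive replicates. The fractions did not overlap (log2 change 0.20 ± 0.049 SE, adjusted p = 0.00959 with the block and 0.169 without it), and the change within pair 2 was 0.06 against 0.21 and 0.35 in pairs 1 and 3. Atp6v1f, the gene of the small F subunit of the central stalk (chromosome 6, 29467718 to 29470512, plus strand), went the other way. It stood at 60.2, 55.9 and 56.3 CPM in SM negative and at 53.4, 51.1 and 49.3 CPM in SM positive replicates. The fractions did not overlap (log2 change -0.17 ± 0.046 SE, adjusted p = 0.02 with the block and 0.275 without it). Atp6v1c1, the C subunit gene, was also lower in every SM positive than in every SM negative library, without passing. The 6 V1 genes that did not pass had log2 changes between -0.09 (Atp6v1c1) and 0.11 (Atp6v1g1, a G subunit of the peripheral stalk), and none passed. The blocked call of Atp6v1a was lost without pair 1 (adjusted p = 0.124) or pair 3 (log2 change 0.13, adjusted p = 0.149), and that of Atp6v1f without pair 1 or 3 (adjusted p = 0.175 and 0.115). Atp6v1b2, the B subunit gene that pairs with A in the ATPase ring, had a log2 change of 0.02.

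In the V0 sector, Atp6v0a1, an isoform of the large a subunit (chromosome 11, 101009452 to 101063719, plus strand), stood at 32.5, 36.8 and 35.7 CPM in SM negative and at 36.6, 43.8 and 40.2 CPM in SM positive replicates. SM positive replicate 1 lay within the SM negative range, but each pair had the same direction, by 0.17, 0.25 and 0.17 (log2 change 0.20 ± 0.052 SE, adjusted p = 0.0139 with the block and 0.323 without it). Atp6v0b, a proteolipid of the rotating ring (chromosome 4, 117884326 to 117887333, minus strand), stood at 157.5, 143 and 157 CPM in SM negative and at 141, 134 and 144 CPM in SM positive replicates. The ranges overlapped, and the changes within pairs were -0.16, -0.09 and -0.12 (log2 change -0.13 ± 0.041 SE, adjusted p = 0.044 with the block and 0.384 without it). Exons of Gm12841 overlap it on the opposite strand. Leaving out pair 1, 2 or 3 ended the blocked calls of Atp6v0a1 (adjusted p = 0.102, 0.0729 and 0.0674) and of Atp6v0b (0.32, 0.0579 and 0.143). Atp6v0c, the main proteolipid of the ring, stood at 211, 186 and 191 CPM and at 194, 186 and 186 CPM, and its log2 change of -0.05 ± 0.041 (SE) did not pass with the block (adjusted p = 0.455). Part of its reads may be divided with 2 annotated pseudogenes. The d1 and e subunit genes Atp6v0d1 and Atp6v0e had log2 changes of 0.09 and 0.0033, and the accessory genes Atp6ap1 and Atp6ap2, whose products help assemble the pump, had 0.04 and 0.05, with Atp6ap2 higher in every SM positive than in every SM negative library.

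**Figure D3:**
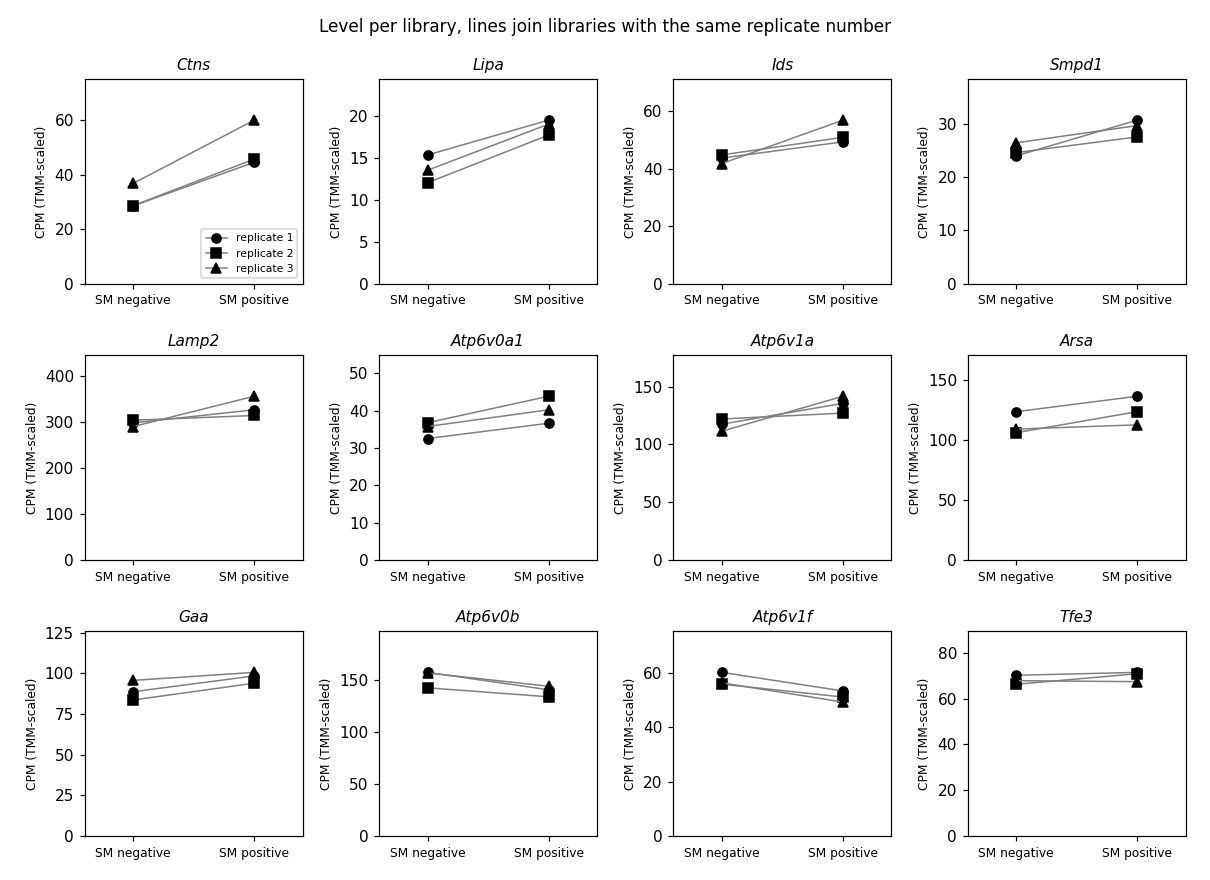
CPM (y axis, TMM-scaled, from 0) in SM negative and SM positive libraries for the 11 members past an adjusted p of 0.05 with the block and for Tfe3. Symbols mark replicate numbers and lines join the same number. The Ctns lines run parallel, with replicate 3 above the others in both fractions, and the lines of Atp6v0b and Atp6v1f all slope down.

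Levels per length of annotated exon differed far more between subunits than between fractions. The length is the union of all annotated exons and can exceed that of the transcript expressed. Ranks between genes therefore depend partly on the annotation. In SM negative libraries the V0 genes ran from 74.3 ± 4.11 (SD, n = 3) CPM per kb of exon for Atp6v0b through 57.9 ± 3.87 for Atp6v0c, 32.9 ± 1.41 for Atp6v0d1 and 15.02 ± 1.02 for Atp6v0e to 5.34 ± 0.337 for Atp6v0a1. The V1 genes ran from 114 ± 5.22 CPM per kb for Atp6v1g1 to 7.09 ± 0.383 for Atp6v1h, and Atp6v1d (14.3 ± 0.536) and Atp6v1e1 (13.6 ± 0.183) were neighbours within their spread. The order was the same in SM positive libraries for the V0 genes. Of the a subunit isoforms, Tcirg1 (a3) stood at 24.0 ± 2.07 CPM per kb in SM negative and 23.8 ± 2.95 in SM positive libraries and Atp6v0a2 at 9.29 ± 0.91 and 10.003 ± 0.552, while Atp6v0a4 had 0 to 4 counts per library. Atp6v0d2, Atp6v1e2 and Atp6v1g3, isoforms known from osteoclasts, testis and kidney, had 0 counts in all 6 libraries.

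**Figure D4:**
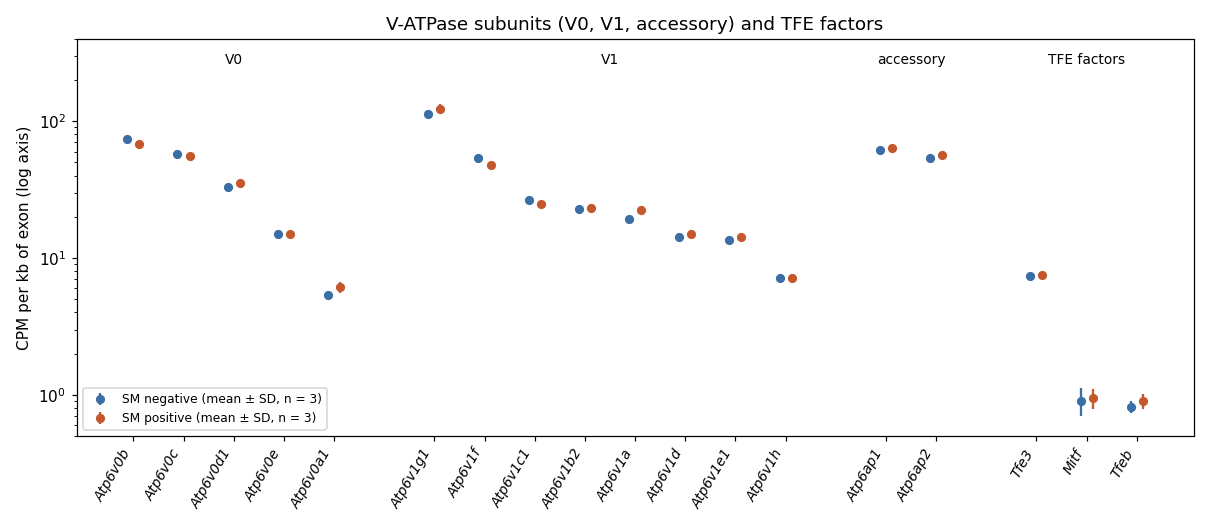
CPM per kb of annotated exon (y axis, log scale) of V-ATPase genes by sector and of the 3 TFE factors, as mean ± SD over 3 libraries in SM negative and SM positive cells. Atp6v1g1 is the highest (114 and 123 CPM per kb), Tfeb and Mitf lie under 1 CPM per kb, and the fractions nearly coincide for each gene.

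None of the 3 TFE factors passed with or without the block. Tfe3 stood at 70.2, 66.2 and 67.8 CPM in SM negative and at 71.4, 70.8 and 67.4 CPM in SM positive replicates (log2 change 0.04 ± 0.044 SE, adjusted p = 0.647 with the block). Tfeb stood at 4.54, 4.22 and 5.12 CPM and at 5.78, 5.00 and 4.56 CPM, so pairs 1 and 2 were higher and pair 3 lower (log2 change 0.15 ± 0.14 SE, adjusted p = 0.546). Mitf stood at 7.04, 5.24 and 4.60 CPM and at 6.94, 5.18 and 5.42 CPM (log2 change 0.06 ± 0.12 SE, adjusted p = 0.812). Per kilobase of exon, Tfe3 (7.35 ± 0.213 in SM negative libraries, SD, n = 3) stood above Mitf (0.908 ± 0.205) and Tfeb (0.816 ± 0.0803), and Mitf and Tfeb did not differ beyond their spread. Tfec, the remaining gene of the family, had 0 counts in all 6 libraries.

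Other genes of the pathway were described from 5 lists. Mannose 6-phosphate receptors carry new hydrolases to the lysosome, and of 9 tested genes of this sorting route Igf2r passed without the block and rose. Igf2r encodes the cation-independent receptor and stood at 132, 127 and 134 CPM in SM negative and at 159, 163 and 185 CPM in SM positive replicates, with no overlap. Its log2 change was 0.37 ± 0.065 (SE) without the block (adjusted p = 0.0267), and 0.37 ± 0.044 with it (adjusted p = 7.88e-06). The unblocked call ended without SM negative replicate 1, 2 or 3 (adjusted p = 0.0884, 0.123 and 0.0928). It also ended when SM positive replicate 2 or 3 was left out (adjusted p = 0.0536 and 0.0748). The other receptor gene, M6pr, had a log2 change of 0.02. With the block Gga3 and Gga2, coat adaptors that sort these receptors at the Golgi, fell (log2 changes of -0.19 and -0.16, adjusted p = 0.0296 and 0.0365). Without the block they did not pass (adjusted p = 0.388 and 0.307), and each passed in 2 of 7 blocked alternatives, with adjusted p up to 0.412 and 0.449. In this list 11.1% rose and 22.2% fell with the block, against 8.52% and 5.6% of all genes.

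Among the 23 other lysosomal hydrolases and cofactors, all tested, 3 rose and none fell with the block (13.04% rose, against 8.52% of all genes), and none passed without it. Galc, the galactosylceramidase gene, stood at 72.6, 70.4 and 77.0 CPM in SM negative and at 99.7, 83.1 and 101.4 CPM in SM positive replicates (log2 change 0.37 ± 0.046 SE, adjusted p = 1.51e-05 with the block and 0.0543 without it). Psap, the precursor of the saposins, which help sphingolipid hydrolases reach their substrates, had a log2 change of 0.17 (adjusted p = 0.00751 with the block and 0.229 without it) and passed in 5 of 7 blocked alternatives. Of 21 other tested lysosomal membrane genes, 4 rose and 1 fell with the block (19.0% and 4.76%, against 8.52% and 5.6% of all genes), and none passed without it. The endolysosomal cation channel gene Tpcn1 had a log2 change of 0.29 (adjusted p = 0.000106) and Laptm4a one of 0.20 (adjusted p = 0.00195). The gene that fell was Cd68, a glycoprotein of the lysosomal membrane widely used as a macrophage marker, at -0.46 (adjusted p = 0.0148 with the block and 0.233 without it), and it passed in 3 of 7 blocked alternatives.

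Among 9 other tested V-ATPase genes, Dmxl1, a partner in assembling V1 with V0, rose with the block (log2 change 0.17, adjusted p = 0.0169, against 0.558 without it) and passed in 4 of 7 blocked alternatives. This is 11.1% of the list, against 8.52% of all genes. Of 17 tested genes of the mTORC1 and RAG control of TFE factors, Rraga, a RAG GTPase gene, rose (0.16, adjusted p = 0.0133) and Lamtor5, a Ragulator subunit gene, fell (-0.14, adjusted p = 0.0313) with the block. These shares, 5.88% each, compare with 8.52% higher and 5.6% lower among all genes. Without the block Rraga and Lamtor5 had adjusted p = 0.297 and 0.298, and each passed in 3 of 7 blocked alternatives. The median log2 changes of the lists were 0.04 for hydrolases and cofactors, 0.02 for membrane genes, 0.04 for V-ATPase genes, -0.06 for sorting genes and -0.01 for the mTORC1 and RAG genes.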

How the data were processed

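RNA-seq of polyadenylated RNA from 6 libraries was analysed. The deposited table holds expected counts per gene, as RSEM estimates them. Per the submitters' processing notes, FastQC 0.11.5, STAR 2.6.0a, RSEM 1.3.1 and the GRCm38 build were used, with no order or role. Per the labels' protocols the library kit was stranded. For the counting, the strand setting and annotation release were not given in the sources read, and 13 members share exonic bases with a gene on the opposite strand. For 14 members some expected counts were not whole numbers, as when reads are divided between genes.

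Identifiers were matched without version to GENCODE M21 (99.8% matched), which gave symbols, coordinates (1-based) and the exon lengths behind CPM per kb (the union of annotated exons). Counts were rounded, filtered with filterByExpr, scaled by TMM and tested with edgeR 4.0.16 (R 4.3.3) over all genes with Benjamini-Hochberg adjustment at 0.05. Limits at 0 (3 counts) hold for counting error alone, since reads copied by PCR are not separate molecules. Each adjusted p is from edgeR unless another tool is named. Whether replicates came from separate cultures or sorts is not stated, and the p-values therefore reflect library-to-library spread that could be technical. Deviations from the fraction means correlated at 0.22, 0.28 and 0.196 in same-numbered libraries and at -0.175 to -0.043 otherwise. All 3 exceeded 0.1, so the numbers were taken as pairs.

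Alternatives were other scalings, filters and tools (DESeq2 1.42.0, limma-voom from limma 3.58.1), the replicate block, and leaving out libraries or pairs. The fits were tested on data simulated with a set spread. At a simulated 1.25-fold change, 20% of changed genes were recovered without the block and 44% with it. At 1.5-fold these shares were 76.6% and 78.7%. A gene that did not pass can therefore still differ by a small fold. Named with values were the members past 0.05 in either fit, the TFE factors, Lamp1, Lamp2, Atp6v0c and the highest and lowest of each class. From each pathway list, up to 2 genes that rose and 2 that fell were named. Other genes were named after their values were seen. The members and lists were chosen with earlier results of these data known.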

Additional observations from a re-analysis of the deposited data

How the results depend on the processing

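Without the replicate block, no member was called lower under any alternative, and members called higher numbered 3 with no filter (Ctns, Ids and Lipa), 2 with DESeq2 (Ctns and Lipa) and 0 with the other scalings, limma-voom, the 1 CPM filter, no robust estimation or any 1 library left out. With the replicate block, 9 were higher and 2 lower, and the same counts came with RLE size factors or library totals. The blocked fit gave 6 higher and 1 lower with limma-voom, and 2 higher and 0 lower with DESeq2. With 1 pair left out it gave 3 to 7 higher and 0 to 1 lower, the cause was not tested, and these fits have fewer samples. Over all genes these fits called 506 to 1029 higher and 199 to 764 lower, against 1196 and 786 with all pairs.

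The hydrolase median log2 change ran from 0.0695 (replicate block, without pair 1) to 0.1187 over the fits that left out a library or pair. In these fits the V-ATPase median ran from 0.0097 (without SM positive replicate 3) to 0.06 and the membrane protein median from 0.0165 (without SM negative replicate 2) to 0.09. Among named genes, Atp6v0c (-0.05) and Mitf (0.05) changed sign. Atp6v0c was at 0.0027 without SM negative replicate 1 and at -0.0876 without SM negative replicate 2. Mitf ran up to 0.2596 without SM negative replicate 1, and was at -0.07 without SM negative replicate 3, -0.10 without SM positive replicate 1, and -0.018 with the block and without pair 3. Tfeb and Mitf, at 4.22 to 7.04 CPM, had the largest SEs of the tested members in the fit without the block.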

Other observations

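Shpk, the sedoheptulokinase gene, begins 417 bases beyond the start of Ctns and runs in the opposite direction. It was looked up after the Ctns values were seen. Shpk stood at 8.32, 6.998 and 8.39 CPM in SM negative and at 12.1, 11.8 and 11.7 CPM in SM positive replicates 1, 2 and 3, with no overlap. Its log2 change was 0.58 in the fits without and with the replicate block, and it passed in both (edgeR adjusted p = 0.0301 and 0.00028). On the other side of Ctns, Tax1bp3 had a log2 change of 0.15 (adjusted p = 0.0301) and Emc6 one of -0.14 (adjusted p = 0.0496) with the block. Without the block neither passed (edgeR adjusted p = 0.32 and 0.342). Trpv1, beyond Shpk, had 0 to 2 counts per library.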
